A study of Nicotiana tabacum with 8 samples.

Results

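The light-harvesting chlorophyll-binding protein family was examined in shoot tips of tobacco (Nicotiana tabacum, cultivar Samsun) seedlings. The members are 32 tomato gene numbers (Solyc numbers) listed together as tomato Lhca and Lhcb genes (the Cab genes and the minor antennas) plus PsbS, of 34725 coding sequences in the deposited files. Seedlings that had germinated on MS medium were moved to Magenta vessels, where they grew on MS medium with sucrose for 10 days, either without a fungus (control, 4 libraries, numbered 9 to 12) or exposed to the volatiles of Cladosporium sphaerospermum strain TC09 (TC09-exposed, 4 libraries, numbered 13 to 16). The labels name the growth stage of all libraries as 10 days after germination, although seedlings were already some days old at transfer, and name no mutant or transgene. Both groups had the same medium and light cycle, and TC09 was cultured within the vessel. A library held the apical meristem and youngest leaves of seedlings that, by the labels, were pooled from 1 vessel. The comparison asks which transcripts differ after exposure.

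Antenna proteins bind chlorophyll and carotenoids in the thylakoid membrane and pass absorbed light energy to the reaction centers. The Lhcb proteins serve mainly photosystem II, as abundant trimers and as the minor monomeric antennas CP24, CP26 and CP29, whereas the Lhca proteins form the antenna belt of photosystem I. PsbS is a relative of this family that is needed for the rapid release of excess light energy as heat. The genes are nuclear, are among the most highly expressed of green tissue, and are known to respond to light, the circadian clock, sugar and the state of the chloroplast. Several tomato Cab genes, the older name of the family, lie in tandem copies. The list names the proteins as a set. Neither the deposited files nor the reference used here pairs a single number with its protein, so members are described by number and by runs of neighboring numbers, whose first digits give the tomato chromosome.

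Reads of tobacco were counted on tomato coding sequences, and a number stands for every tobacco gene copy whose reads matched that tomato gene. The libraries held 7853857 to 9674090 total gene reads. Reads shared between genes were 4.62% to 5.59% of a library, but 20.5% to 21.5% of the family's own reads. Levels of 1 gene between libraries are given as CPM, a gene's count scaled to library size with TMM normalization, and levels of different genes as the deposited TPM, which accounts for coding length. Within a group of these bulk samples, fewer green cells and less RNA per cell cannot be told apart.

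The family was very abundant in every library. Its 32 members took 8.13% to 12.8% of all total gene reads in the control libraries and 6.44% to 11.2% in the TC09-exposed libraries, and these ranges overlapped widely. By mean TPM, 29 of the 32 members were among the 100 most abundant of all coding sequences, and 28 exceeded 1000 TPM. The highest was Solyc03g005780 with 10813 TPM, the 3rd of all genes. Solyc08g067330 followed with 10243 TPM, then Solyc06g063370 with 8085, Solyc03g005770 with 7028 and Solyc02g071000 with 6263 TPM. The spread between libraries was wide at this end of the order. Solyc03g005780 ranged from 8383 to 13888 TPM in the controls and Solyc08g067330 from 7756 to 13266 TPM, and the ranges overlapped, although the first was the higher of these members within each of the 8 libraries. The order of Solyc08g067330 and Solyc06g063370 turned in control library 11 (7756 and 7859 TPM). The lowest members were Solyc06g069000 with 21.5 TPM, Solyc03g005790 with 139 TPM and Solyc12g009200 with 172 TPM.

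**Figure D1:**
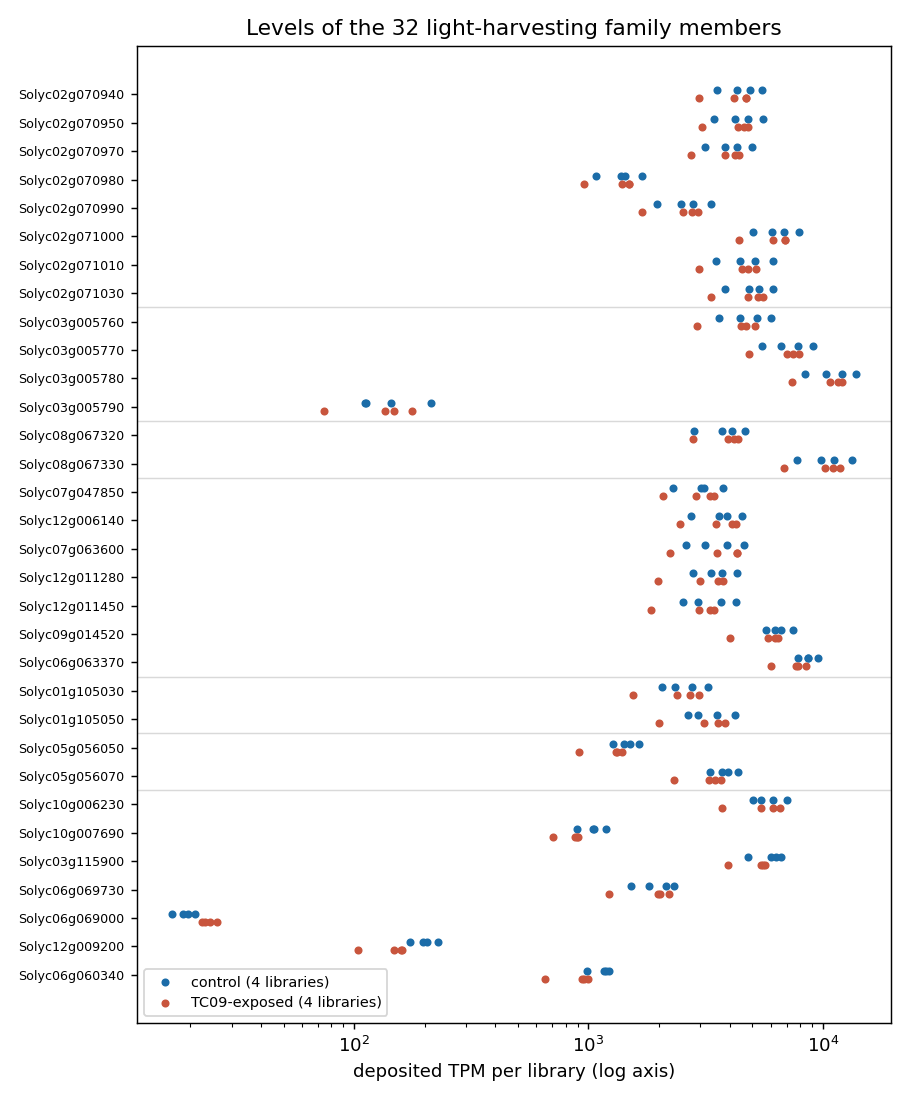
Deposited TPM of each member (horizontal, log axis) in the 4 control and the 4 TC09-exposed libraries, with 1 point per library and gray lines between runs of neighboring numbers. Most members lie above 1000 TPM, and Solyc06g069000 is the lowest with 21.5 TPM on average.

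After 10 days of exposure, 1 of the 32 members was lower and 0 were higher than in the control (adjusted p of 0.05 or less, edgeR's quasi-likelihood test). All 32 had passed the filter on low counts. Over all 19325 genes tested, 12% were called lower and 9.56% higher by the same rule, so the members were called in a smaller share (3.12%) than genes at large. An unadjusted p under 0.05 was found for 4 members, 3 lower and 1 higher, whereas 35.3% of all genes tested had one. DESeq2 called 3 members lower and 0 higher, where it called 11.4% of all genes lower and 9.19% higher. With library size alone as the scaling, 8.61% of all genes were lower and 15.8% higher, and the members gave 1 lower and 1 higher.

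The estimates were small and nearly all on the same side. The log2 fold change (TC09-exposed over control) was below 0 for 31 of the 32 members, against 48.7% of all genes tested, with a median of -0.20 over the members and 0.01 over all genes. For the 31 members not called, the 95% intervals reached at most a 1.86-fold fall and a 1.45-fold rise, so a 2-fold change lay outside the interval of each. These 31 signs are not separate observations. Most members moved up and down together from library to library. Solyc06g069000 was an exception, as were Solyc12g009200 and Solyc06g060340 among the controls, where both were lowest in library 12.

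**Figure D2:**
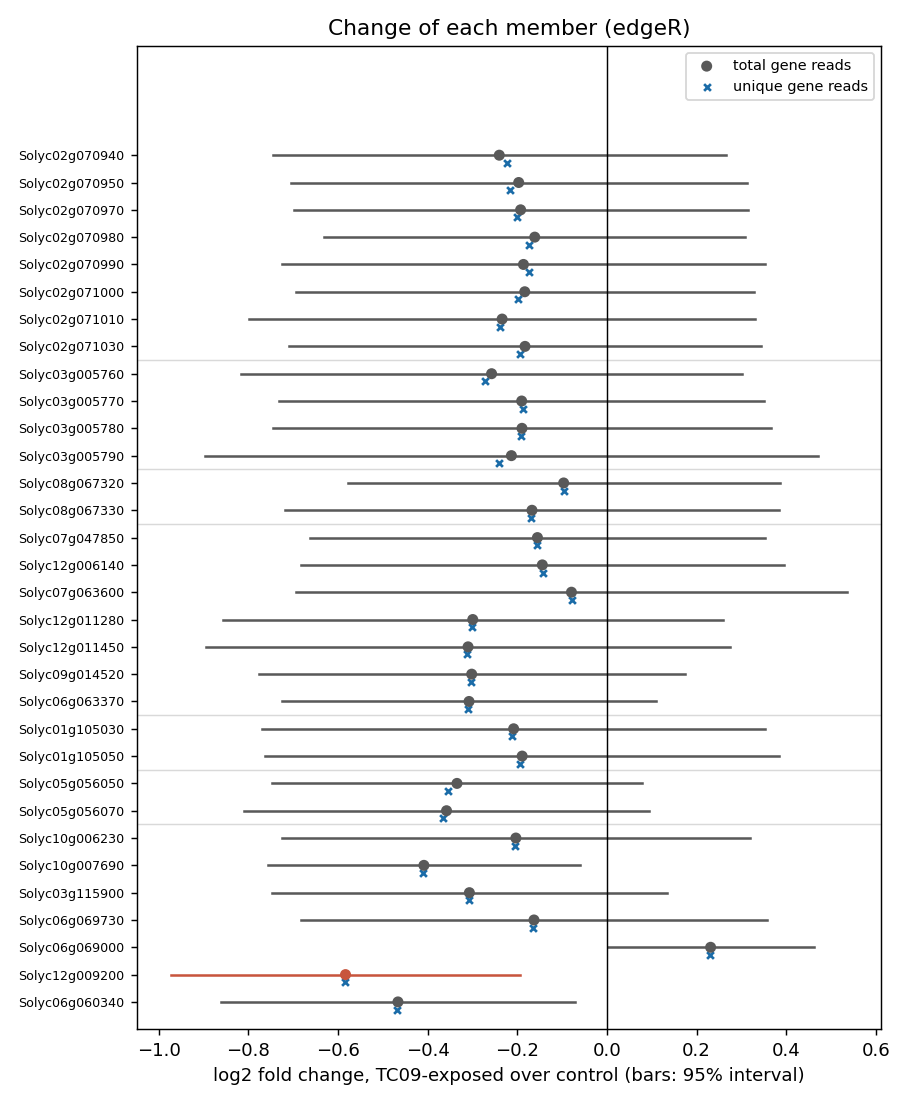
Log2 fold change of each member, TC09-exposed over control, from total gene reads (dots, with 95% intervals as bars) and from unique gene reads (crosses), by edgeR. Only Solyc12g009200 (red) passed the threshold, and all other estimates except that of Solyc06g069000 lie below 0.

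Control library 10 was the highest of all 8 libraries for 30 of the 32 members, and TC09-exposed library 14 was the lowest for 31 of them. Within the controls, library 11 was the lowest for 28 members. The median member lay 0.38 above the control mean in library 10 and 0.38 below it in library 11 on the log2 scale, compared with 0.86 below it in library 14. TC09-exposed library 16 was above the control mean by 0.15, library 13 was within 0.02 of it, and library 15 was below it by 0.17. In library 15, 31 of the 32 members were below their own control mean. The same held for 32 members in control library 12 (median -0.13) and for 29 in control library 11. For a median member, the highest control library was 1.71-fold above the lowest and the highest exposed library 1.94-fold above the lowest. The range of the controls was wider than the ratio of the group means for 30 members. This sets a spread of single libraries beside a ratio of means, which varies less, and it was not counted over all genes.

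The size of the difference between the groups depended on single libraries, and by the median member it was smallest without library 10 or 14. The summed CPM of the family was 108207 ± 23223 (SD, n = 4) in the control and 92512 ± 24418 (SD, n = 4) in the exposed libraries, a ratio of 0.855, and the ratio was 0.959 without library 14. Without it, 22 members were below 0 and 10 above, the median log2 fold change was -0.03, and 1 member was called lower, where 14.6% of all genes were lower and 13.2% higher. Without control library 10, 28 members were below 0 and 4 above, the median was -0.05, and 0 members were called, where 10.6% of all genes were lower and 9.27% higher. In the other direction, the median was -0.31 without control library 11 and -0.34 without exposed library 16. Library 14 also had the largest TMM factor (1.10) and 8129933 total gene reads, near the low end of the range. The part of single libraries in the result was not tested.

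**Figure D3:**
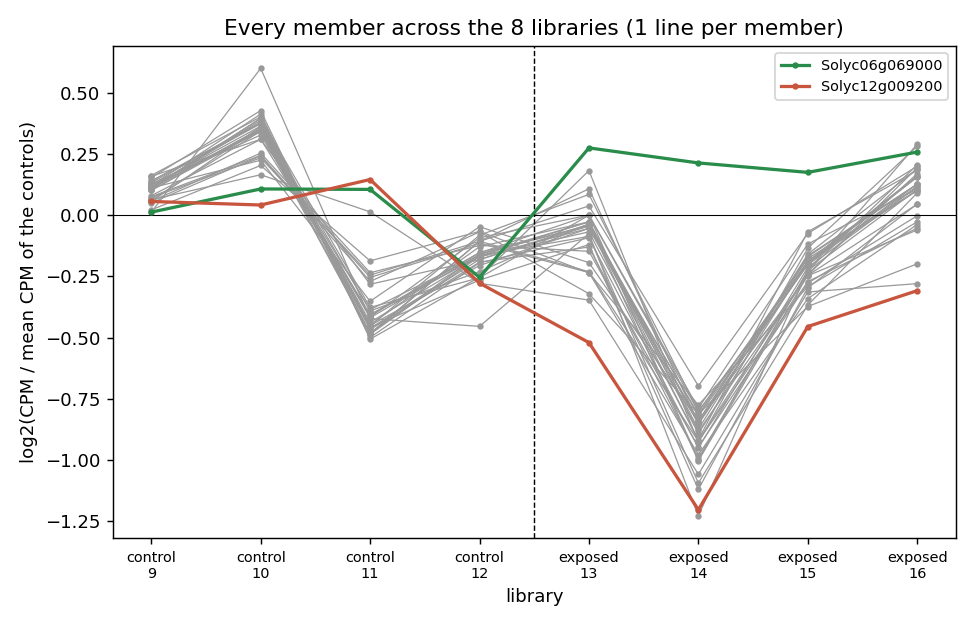
Log2 ratio of each member's CPM to its mean over the controls (vertical) in each of the 8 libraries (horizontal, 1 line per member, controls left of the dashed line). Most lines are high in library 10, and all except that of Solyc06g069000 (green) are lowest in library 14. Solyc12g009200 (red) peaks in library 11.

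The largest run of neighboring numbers lies on chromosome 2 (Solyc02g070940 to Solyc02g071030, 8 members, each 798 bases of coding sequence). It held 27.6% of the family's reads. Its summed CPM was 31973, 37987, 21824 and 26545 in control libraries 9 to 12 and 28821, 16395, 25801 and 31969 in TC09-exposed libraries 13 to 16. The groups overlapped, and every exposed library but 14 lay inside the range of the controls. Log2 fold changes of the 8 members ran from -0.24 for Solyc02g070940 (standard error 0.228, 95% interval -0.75 to 0.27, adjusted p = 0.484, edgeR) to -0.16 for Solyc02g070980 (standard error 0.212, adjusted p = 0.623). Solyc02g070940 had 4413, 5067, 3039 and 3634 CPM in the controls and 3914, 2190, 3406 and 4166 CPM after exposure. Of the tomato numbers in this run, Solyc02g070980 had the lowest mean TPM (1364) and Solyc02g071000 the highest (6263). Many reads of this run were shared with other genes. Only 43.3% to 71.5% of a member's reads were unique, so the level of a single number is uncertain, and no number stands for a single tobacco copy. The sum of the run is not affected by sharing among its copies, but which genes shared the reads was not examined.

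The run on chromosome 3 (Solyc03g005760, Solyc03g005770, Solyc03g005780 and Solyc03g005790) held 19.3% of the family's reads. Solyc03g005780, the most abundant member, had 10911, 12891, 7224 and 8780 CPM in the controls and 9654, 5547, 8847 and 10856 CPM in the exposed libraries. Its lowest value was again that of library 14 and its highest that of library 10, and the groups overlapped. The log2 fold change was -0.19 (standard error 0.250, 95% interval -0.74 to 0.37, adjusted p = 0.624, edgeR). Solyc03g005760 had the lowest estimate of the run, -0.26 (standard error 0.252, adjusted p = 0.499). Solyc03g005790 is a short model of 276 bases, against 804 bases for the other 3, and its 44.6 ± 16.3 CPM in the control and 38.5 ± 14.7 CPM in the exposed libraries (SD, n = 4 each) were the noisiest of the family (standard error 0.308). Unique reads made up 52.3% to 86.8% of the reads of these members.

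The pair on chromosome 8 (Solyc08g067320 and Solyc08g067330) consists of short models too, of 276 and 297 bases. Their high TPM therefore rests on few bases. Solyc08g067320 had 1273, 1477, 833 and 1084 CPM in the controls and 1197, 720, 1108 and 1340 CPM after exposure, which overlapped. Log2 fold changes were -0.10 for Solyc08g067320 (standard error 0.217, adjusted p = 0.784) and -0.17 for Solyc08g067330 (standard error 0.248, adjusted p = 0.668, edgeR). Over 91% of the reads of both were unique.

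The pair on chromosome 1 (Solyc01g105030 and Solyc01g105050) behaved alike. Solyc01g105030 had 2414, 2893, 1697 and 1897 CPM in the controls and 2172, 1110, 1877 and 2544 CPM in the exposed libraries. Solyc01g105050 had 2861 ± 709 CPM and 2509 ± 798 CPM (SD, n = 4 each). Their log2 fold changes were -0.21 and -0.19, with adjusted p-values of 0.592 and 0.637 (edgeR).

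The pair on chromosome 5 (Solyc05g056050 and Solyc05g056070) had the lowest estimates among the runs and pairs. Solyc05g056070 had 3299, 3707, 2625 and 2891 CPM in the controls and 2661, 1590, 2472 and 3048 CPM after exposure. The exposed libraries were shifted down, but libraries 13 and 16 overlapped the controls. Its log2 fold change was -0.36 (standard error 0.203, 95% interval -0.81 to 0.09) with an adjusted p of 0.237, and that of Solyc05g056050 was -0.33 (standard error 0.186) with an adjusted p of 0.227 (edgeR). About 64.5% of the reads of each were unique.

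The remaining 14 members lie apart from the runs and pairs and shared few reads (95.5% to 100% unique). For 10 of them the log2 fold changes lay between -0.31 and -0.08, with adjusted p-values from 0.271 to 0.865 (edgeR). The most abundant of these, Solyc06g063370, had 8378, 9502, 7253 and 7884 CPM in the controls and 7012, 4823, 6740 and 8100 CPM in the exposed libraries. Exposed libraries 13, 14 and 15 were below every control and library 16 was not. Its log2 fold change was -0.31 (standard error 0.188, 95% interval -0.73 to 0.11, adjusted p = 0.271). Similar estimates were found for Solyc12g011450 (-0.31), Solyc03g115900 (-0.31), Solyc09g014520 (-0.30) and Solyc12g011280 (-0.30). Smaller ones were found for Solyc10g006230 (-0.20), Solyc06g069730 (-0.16), Solyc07g047850 (-0.16), Solyc12g006140 (-0.14) and Solyc07g063600 (-0.08). The estimate of Solyc07g063600 turned to 0.01 with library size alone as the scaling, 0.10 without library 10 and 0.12 without library 14.

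Solyc12g009200 was the one member called. It had 180.3, 178, 192 and 143 CPM in control libraries 9 to 12 and 121, 75.3, 127 and 140.0 CPM in TC09-exposed libraries 13 to 16. The groups did not overlap, although control library 12 and exposed library 16 almost touched. The means were 173 ± 21.1 CPM and 116 ± 28.1 CPM (SD, n = 4 each), a 1.50-fold fall (-0.58 on the log2 scale, 95% interval -0.97 to -0.19, standard error 0.175, edgeR's adjusted p = 0.0385). All of its reads were unique. With 172 TPM on average, it was among the 3 least abundant members. The call ended without control library 9, 10 or 11 (adjusted p = 0.0911, 0.0664 and 0.0999) or exposed library 13 or 15 (0.0786 and 0.0636), with log2 fold changes from -0.63 to -0.52, and held without library 14 (-0.42, adjusted p = 0.0203). Over all alternatives the adjusted p ranged from 0.0133 to 0.0999.

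Solyc06g060340, the last number of the list, had 1098, 1179, 1061 and 867 CPM in the controls and 827, 505, 846 and 866 CPM after exposure. All exposed libraries were below all controls, but control library 12 exceeded exposed library 16 by less than 1 CPM. The log2 fold change was -0.47 (standard error 0.178, 95% interval -0.86 to -0.07) and did not pass the test after adjustment (adjusted p = 0.0892, edgeR). The adjusted p was 0.0474 in DESeq2 and 0.0488 in limma-voom with library weights. In the other 17 of 19 alternatives this member was not called, with an adjusted p of up to 0.179 (edgeR without control library 9).

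Next are members singled out after their values were seen, for an unadjusted p under 0.05. Solyc10g007690 had 985, 1125, 789 and 907 CPM in the controls and 762, 542, 735 and 829 CPM after exposure, so that control library 11 lay below exposed library 16. Its estimate was -0.41 on the log2 scale (95% interval -0.76 to -0.06, standard error 0.157, edgeR's adjusted p = 0.0899), and its adjusted p was 0.0464 in DESeq2 and 0.0473 in limma-voom with library weights. It was not called in the other 17 of 19 alternatives, with an adjusted p of up to 0.189 (edgeR without control library 10). Solyc06g069000 was the only member with an estimate above 0. It had 20.8, 22.3, 22.2 and 17.3 CPM in the controls and 25.0, 24.0, 23.3 and 24.7 CPM after exposure. Each exposed value exceeded all of the controls, with an estimate of 0.23 on the log2 scale (1.17-fold, standard error 0.104, edgeR's adjusted p = 0.139). This member, the least abundant, did not follow the dips of the family in libraries 11 and 14. With library size alone as the scaling it was called (log2 fold change 0.33, edgeR's adjusted p = 0.0414). Under that scaling the median over all genes was 0.11, and 15.8% of all genes were called higher. In the other 18 of 19 alternatives it was not called, with an adjusted p of up to 0.305 (edgeR without control library 12).

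**Figure D4:**
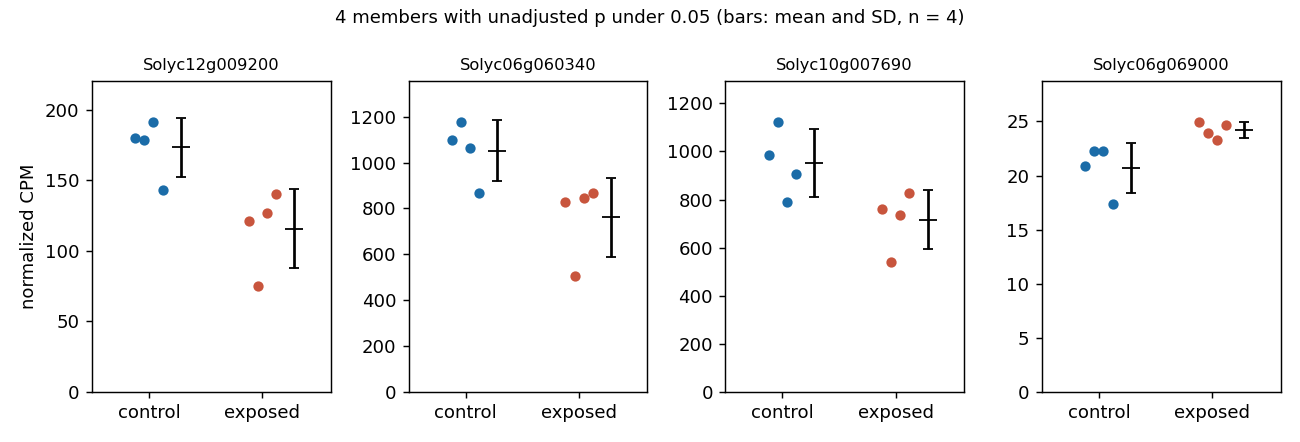
Normalized CPM (vertical, from 0) of the 4 members with an unadjusted p under 0.05, with 1 point per library and the mean and SD of each group (n = 4) beside the points. In Solyc12g009200 and Solyc06g060340 all exposed libraries lie below all controls, in Solyc06g069000 above them, and in Solyc10g007690 the groups overlap.

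Counted over the family, the exposed libraries lay below all controls for 2 of the 32 members and above them for 1. Over all genes tested, these shares were 13.4% and 11.5%, so the members were not separated more often than genes at large.

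Because most members rose and fell together, each was also expressed as a share of the family's reads in its own library, a comparison added after the values were seen. Solyc03g005780 took 9.38%, 9.45%, 8.71% and 9.04% of the family's reads in control libraries 9 to 12 and 9.37%, 9.46%, 9.52% and 9.40% in exposed libraries 13 to 16. On this scale library 14 no longer stood apart for this member. The groups of libraries did not overlap for 3 members, 1 below and 2 above. When divided by the same family sum, 0.906% and 12.3% of all genes were below and above. The members make up that sum and other genes do not, so these shares are not a like measure. Solyc05g056070 was the member below, with 2.84%, 2.72%, 3.16% and 2.98% in the controls and 2.58%, 2.71%, 2.66% and 2.64% after exposure, and control library 10 and exposed library 14 almost touched. Those above were Solyc08g067320, with 1.07% ± 0.0484 and 1.19% ± 0.0319, and Solyc02g071030, with 4.10% ± 0.115 and 4.23% ± 0.0439 (SD, n = 4 each). Counting unique reads only, Solyc02g071030 overlapped, Solyc02g070990 was above instead, and Solyc05g056070 and Solyc08g067320 were again below and above. Solyc12g009200, Solyc06g060340 and Solyc06g069000 were separated by CPM but overlapped as shares of the family's reads, by total and by unique reads. For Solyc12g009200, control library 10 (0.131% of total reads) lay below exposed library 15 (0.136%). No test was run on these shares.

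Unique reads gave the same picture as total reads. Between the ways of counting, the log2 fold change of a member differed by at most 0.03, and Solyc12g009200 was again the one call (adjusted p = 0.0375, edgeR). With unique reads, 12.1% of all genes were lower and 9.65% higher. When each run or pair was summed to 1 feature before the fit, 19 features represented the family and 1 of them, Solyc12g009200, was called lower. In that fit 11.7% of all genes were lower and 10.2% higher.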

How the data were processed

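RNA of 4 control and 4 TC09-exposed libraries was compared, and groups were taken from the exposure tag of the labels. The treatment text of the labels reads as unexposed for all 8 libraries, so the tag decides. The authors trimmed the reads, ran CLC Genomics Workbench (version 10) against tomato sequences of a release that these sources do not state, and deposited total and unique gene read counts. TPM was deposited as well, scaled by coding length, and recomputing it from total reads gave differences of at most 1.89e-10. The labels name both 50 bp and 100 bp reads. Replicates are vessels by the labels and plants by the paper. If some share a vessel they are not independent, and p-values then measure partly the spread within a vessel.

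Total gene reads were tested across all genes with edgeR (version 4.0.16, R 4.3.3). The steps were filterByExpr (count of at least 10, total of at least 15), TMM (factors 0.938 to 1.10), a quasi-likelihood fit with condition as the only term, and Benjamini-Hochberg adjustment. The threshold for a call was an adjusted p of 0.05, the paper's own. The standard error is the log2 fold change over the square root of F, and 95% intervals use the fit's degrees of freedom. The procedure was tested on simulated data in which each gene was drawn independently, so members that move together were not covered. DESeq2 (1.42.0), limma-voom (limma 3.58.1), other scalings and filters, unique reads, summed runs and leaving out each library were alternatives, and limma-voom with library weights was added after the data were seen. Named were the members called, the 5 of highest TPM, the last of the list and the extremes of each run. The members and lists were chosen with earlier results of these data known. Within a group, pairs of libraries differed well beyond sampling noise (chi-square per degree of freedom 6.01 to 31.7), so none was counted as a repeat. The labels number the libraries 9 to 16, so no label pairs a control with an exposed library, and no pairing was fitted. Sequences, names of other photosynthesis genes and markers of cell types were not used here.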

Additional observations from a re-analysis of the deposited data

Results flagged for a closer look

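In the TC09-exposed group, library 14 stood far from the other libraries for Solyc06g060340, with 505 CPM against 827 CPM in the nearest one, a gap of 0.891 of the group's range (above Dixon's 95% limit for 4 libraries). It was the 1 result singled out among 66 groups of libraries examined, where chance gives about 1 in 20. Without library 14 the log2 fold change of this member was -0.31 (adjusted p = 0.0764, edgeR).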

How the results depend on the processing

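No paired analysis was possible because the labels number the libraries 9 to 16 without repeats, and nothing in them ties a control to an exposed library. With all libraries, 1 member was called lower and 0 higher without a filter, with a minimum mean of 50 reads, by RLE, by TMM without the members, limma-voom, unique reads and summed runs. Of all genes in these fits, 8.08% to 13.5% were lower and 6.83% to 12.1% higher. The count of members lower was 3 in DESeq2 (11.4% of all genes lower) and 3 in limma-voom with library weights (15.5% of all genes lower, added after the data were seen), and 0 at an adjusted p of 0.01 or less. With library size alone as the scaling, 1 member was higher, 3057 of all genes were higher, the median over all genes was 0.11, and Solyc07g063600 turned to 0.009. At an adjusted p of 0.01 or less, 701 genes were higher and 1031 lower. Leaving out 1 library gave 0 to 1 members lower (0 without library 9, 10, 11, 13 or 15), a median member between -0.34 and -0.03, 1148 to 2575 of all genes higher (1148 without library 9, 1180 without 11, 1185 without 13) and 1468 to 2863 lower (1468 without 11, 1488 without 9). Signs turned without library 10 for Solyc03g005790 (0.0612), Solyc08g067320 (0.0397) and Solyc07g063600 (0.0983). Without library 14 they turned for Solyc02g070980 (1e-04), Solyc03g005790 (0.0107), Solyc08g067320 (0.0594), Solyc08g067330 (0.0088), Solyc07g047850 (0.0098), Solyc12g006140 (0.0313), Solyc07g063600 (0.1212), Solyc01g105050 (0.0047) and Solyc06g069730 (0.0217). The cause of these changes was not tested.

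All control libraries have lower numbers than all exposed libraries, so any order of processing cannot be told apart from exposure. Tobacco genes that differ much from tomato lose reads, and tobacco copies are counted together. Within the exposed group, the highest library was up to 2.86-fold above the lowest for a single member, which limits the precision of 4 libraries a group.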
